A study of Mus musculus with 4 samples.

Results

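The 10 microRNAs (miRNAs) described here are arms of 7 hairpins that lie inside introns of genes known from neurons: mmu-miR-6540-5p in Gap43, mmu-miR-1224-5p in Vwa5b2, both arms of miR-342 in Evl, of miR-139 in Pde2a and of miR-338 in Aatk, miR-326-3p in Arrb1 and miR-149-5p in Gpc1. They are 10 of 1326 miRNAs listed for retina of mouse embryos at E18.5. Of the 4 small RNA libraries, 2 came from Ptf1a-/- embryos and 2 from Ptf1a+/- embryos, so the comparison group also lacks 1 functional copy of the gene. The labels name no allele, strain or sex and no further treatment, and nothing in them tells if each library is a different animal. The spread between libraries may thus be technical. The members were chosen by host gene and partly selected on the measured difference of miR-6540-5p, miR-1224-5p and miR-342-5p between these genotypes, so the values of all members in this contrast are a description and carry no test.

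A miRNA is a short RNA that guides Argonaute proteins to partly complementary messenger RNAs through its seed, the stretch from base 2 to base 8. Many miRNA genes lie in an intron of another gene, on its strand, and are cut out of its primary transcript, so that miRNA and host message can be made together. Each hairpin yields a 5p and a 3p arm, of which usually 1 is kept and the other is degraded. A hairpin that fills a short intron from end to end, called a mirtron, is released by splicing instead of by the enzyme Drosha. Ptf1a encodes a transcription factor needed in the embryonic retina for horizontal and amacrine interneurons to form. These libraries hold short RNA only, so neither Ptf1a nor any host gene message was measured, and fewer cells of a type cannot be told apart from less RNA per cell in whole retina.

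The mature sequences are shown because they decide which messages each miRNA can pair with, and because no seed is shared between the members. Of the 10, 9 matched RefSeq by name, and their sequences are RefSeq's (GRCm38.p6). The sequence of miR-6540-5p is the reference part of its most frequent sequence in the deposited table, which writes T for U. Each runs 5′ to 3′ with the seed in capitals.
mmu-miR-6540-5p: cTAAGGCAggcagacttcagtg
mmu-miR-1224-5p: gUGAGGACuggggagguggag
mmu-miR-342-5p: aGGGGUGCuaucugugauugag
mmu-miR-342-3p: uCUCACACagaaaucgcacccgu
mmu-miR-139-5p: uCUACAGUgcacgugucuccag
mmu-miR-139-3p: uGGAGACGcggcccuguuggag
mmu-miR-338-5p: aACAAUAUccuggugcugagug
mmu-miR-338-3p: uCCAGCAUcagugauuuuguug
mmu-miR-326-3p: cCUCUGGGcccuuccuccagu
mmu-miR-149-5p: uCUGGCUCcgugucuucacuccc
The 10 seeds are all different. Of 1271 listed miRNAs to which a seed could be assigned, a single one outside the members shares a seed with any of them: miR-330-5p has the seed of miR-326-3p. GC content ran from 40.9% in miR-338-3p to 68.2% in miR-139-3p, and lengths were 21 to 23 bases.

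The hairpins of the 3 miRNAs behind the choice of members are shown because they differ in how they sit in their introns and in how their arms are used. Capitals mark the listed arms, with the 5p arm first (RefSeq, GRCm38.p6).
Mir6540: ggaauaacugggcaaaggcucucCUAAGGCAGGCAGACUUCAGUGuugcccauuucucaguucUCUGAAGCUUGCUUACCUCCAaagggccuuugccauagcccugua
Mir1224: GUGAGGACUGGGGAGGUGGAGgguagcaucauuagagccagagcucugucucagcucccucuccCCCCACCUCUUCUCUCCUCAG
Mir342: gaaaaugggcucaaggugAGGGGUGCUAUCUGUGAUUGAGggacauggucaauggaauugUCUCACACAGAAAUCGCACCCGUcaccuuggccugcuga
Mir1224 begins with gu and ends with ag, the letters that mark the ends of most introns.

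All 7 hairpins lay on the sense strand in an intron of their protein-coding host in GENCODE M21 (GRCm38), and none overlapped an exon of any annotated transcript of that host. Mir6540 is at chr16:42303362-42303469 on the minus strand, in intron 1 of 2 of Gap43, which encodes a protein of growing axon tips. That intron is 48.1 kb long, with the hairpin 11.0 kb before its 3′ end. Mir1224 is at chr16:20604452-20604536 on the plus strand and is identical in extent to intron 22, the last intron of Vwa5b2, at 85 bases. It is thus placed as a mirtron: of 1005 RefSeq precursors, 16 fill an intron in this way. Mir342 is at chr12:108658620-108658718 on the plus strand, in intron 3 of 13 of Evl, whose protein is an actin regulator of the Ena/VASP family.

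The other 4 hairpins lie in introns of 1.72 to 46.5 kb. Mir139 is at chr7:101475376-101475443 on the plus strand in intron 2 of Pde2a, the gene of a cyclic nucleotide phosphodiesterase stimulated by cGMP; a further annotated gene covers it on the same strand. Mir338 is at chr11:120014765-120014862 on the minus strand in intron 7 of Aatk, which encodes a kinase expressed in neurons. It is the only one of the 7 whose host holds another RefSeq precursor, Mir3065, on the opposite strand at nearly the same position. miR-3065-5p was listed at 0 counts in every library, which allows up to 0.774 and 0.923 CPM in Ptf1a-/- and 0.775 and 0.638 CPM in Ptf1a+/- (at 3 counts). Mir326 is at chr7:99552269-99552363 on the plus strand in intron 1 of Arrb1, the gene of beta-arrestin 1, and Mir149 at chr1:92850378-92850443 on the plus strand in intron 1 of Gpc1, which encodes the heparan sulphate proteoglycan glypican-1. Mir326 and Mir139 are 1.92 Mb apart, and Mir1224 and Mir6540 21.7 Mb.

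**Figure D1:**
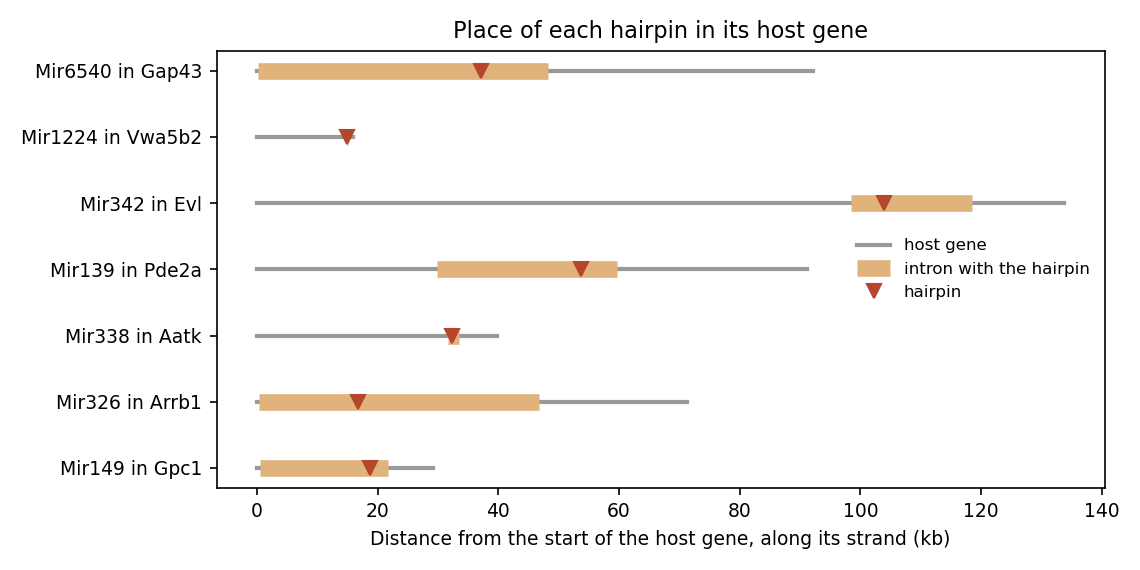
Host genes (grey lines, drawn along their own strand from the gene's start, in kb), the intron that holds each hairpin (orange) and the hairpin (red triangle). Mir6540, Mir326 and Mir149 lie in intron 1 of their hosts, and Mir1224 fills an intron of 85 bases near the 3′ end of Vwa5b2.

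Libraries held 3658490 and 3917069 counts in Ptf1a-/- and 3647145 and 4385834 in Ptf1a+/-, of which the members took 0.286 and 0.222% and 0.266 and 0.271%. Levels are given as CPM (counts scaled to a common library total) after TMM scaling, which corrects for differences in composition; the TMM factor of Ptf1a-/- replicate 2 was 0.829 against 1.06 to 1.07 in the other libraries. The Ptf1a+/- libraries lay very close together: the biological coefficient of variation was 22.5% within Ptf1a-/- and 1.39% within Ptf1a+/-. All 10 members had at least 10 counts in 2 or more libraries, as did 584 miRNAs in all, which were the ones tested. The 6 retina and neuron markers (miR-183-5p, miR-182-5p, miR-96-5p, miR-124-3p, miR-9-5p and miR-204-5p) were all present in every library. Together they stood at 366357 and 521053 CPM in Ptf1a-/- and at 343504 and 340314 CPM in Ptf1a+/-, most of it miR-9-5p and miR-182-5p. None of the 6 was called, and their log2 fold changes ran from -0.34 for miR-96-5p to 0.48 for miR-183-5p.

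The direction of the difference was mixed among the members. The groups did not overlap for 7 members (58.2% of all tested miRNAs did not): for 2 members the lowest Ptf1a-/- value exceeded the highest Ptf1a+/- value (26.7% of all), and for 5 the reverse held (31.5% of all). The groups overlapped for the other 3. In the fit over all 584 miRNAs (edgeR's quasi-likelihood test with Benjamini-Hochberg adjustment, threshold 0.05), 2 members stood among those called higher in Ptf1a-/- (6.16% of all tested) and 1 among those called lower (3.60% of all). Over all miRNAs 36 were called higher and 21 lower. These 3 members are those that guided the choice, so their number says nothing about the group. The median log2 fold change, Ptf1a-/- over Ptf1a+/-, was -0.05 over the 10 members and -0.003 over all tested miRNAs. Calls turn on the 2 close Ptf1a+/- libraries: without replicate 1 of that genotype 0 miRNAs were called higher and 5 lower (34 and 26 at an unadjusted p under 0.05), and without its replicate 2 there were 0 and 1 (32 and 24), with no member among them. Without Ptf1a-/- replicate 1 there were 140 and 122, and without its replicate 2 there were 142 and 132.

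**Figure D2:**
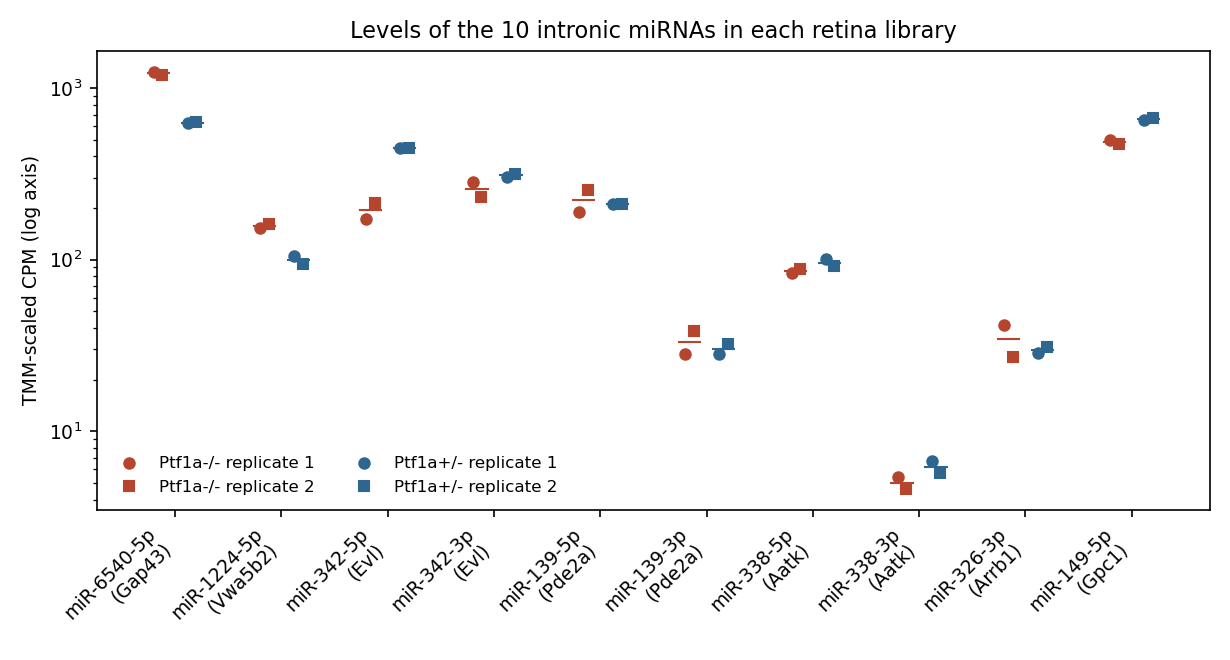
TMM-scaled CPM (log axis) of the 10 members in every library, with Ptf1a-/- left of Ptf1a+/-, circles for replicate 1, squares for replicate 2 and a line at the mean. miR-6540-5p and miR-1224-5p are higher in both Ptf1a-/- libraries, miR-342-5p is lower in both, and the 2 genotypes of miR-139 and miR-326 overlap.

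mmu-miR-6540-5p, from the long first intron of Gap43, was the most abundant member in Ptf1a-/- retina. It had 4823 and 3853 counts in Ptf1a-/- and 2425 and 2963 counts in Ptf1a+/-, which is 1245 and 1186 CPM against 626 and 630 CPM. Both Ptf1a-/- libraries were thus higher by a factor of about 1.93, and on this TMM scale the groups were far apart compared with the spread in either. The log2 fold change was 0.95 ± 0.10 (SE). It ranged from 0.61 to 1.01 under the alternative scalings, filters and library subsets. On the deposited CPM miR-6540-5p stood at 1019 and 709.5 in Ptf1a-/- and at 552 and 565 in Ptf1a+/-. There the groups did not overlap either, but the gap within Ptf1a-/- was wider than the gap between the groups. The other arm, miR-6540-3p, was scarce, with 25 and 12 counts in Ptf1a-/- and 14 and 15 counts in Ptf1a+/-, so that only the 5p arm can be followed at this depth.

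mmu-miR-1224-5p, from the intron-filling hairpin of Vwa5b2, was the other member with a higher level in Ptf1a-/-. Its levels were 154 and 161 CPM in Ptf1a-/- and 104 and 93.8 CPM in Ptf1a+/-, from 595 and 524 counts and 404 and 441 counts. The groups did not overlap, and on this TMM scale the gap between them was wider than the gap between libraries of a genotype. The log2 fold change was 0.67 ± 0.13. It was 0.49 with library size as the only scaling and 0.32 on the deposited CPM, scales on which all tested miRNAs shifted by a median of -0.18 and -0.33. The deposited CPM of miR-1224-5p were 126 and 96.5 in Ptf1a-/- and 91.9 and 84.2 in Ptf1a+/-. There the gap within Ptf1a-/- was wider than the gap between the groups. miR-1224-3p had 3 and 0 counts in Ptf1a-/- and 1 and 3 counts in Ptf1a+/-, too few for any comparison.

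Other miRNAs whose precursor fills a whole intron were set beside miR-1224-5p; they were found from the annotation after the values were known. Of 18 listed arms of such precursors 7 were tested, from 6 precursors including Mir1224. The other 6 had log2 fold changes from -0.48 for miR-6958-3p to 0.27 for miR-1981-3p. None was called by edgeR. miR-6944-3p, from an intron of the actin-binding protein gene Dbn1, stood at 29.2 and 31.1 CPM in Ptf1a-/- and at 31.2 and 34.2 CPM in Ptf1a+/-. The 2 arms of miR-1981 stood at 97.0 and 169 CPM in Ptf1a-/- and at 131 and 121 CPM in Ptf1a+/- (5p), and at 38.7 and 43.1 CPM against 33.3 and 34.2 CPM (3p).

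miR-342 showed unlike values for its 2 arms. The miRNA is known from immune cells as well as from brain. The 5p arm had 672 and 698 counts in Ptf1a-/- and 1738 and 2114 counts in Ptf1a+/-, or 173 and 215 CPM against 449 and 450 CPM. Its log2 fold change was -1.21 ± 0.14, the lowest of the 10 members, and it stayed between -1.56 and -1.06 under every alternative run. The 3p arm had 1100 and 753 counts in Ptf1a-/- and 1179 and 1479 counts in Ptf1a+/-, or 284 and 232 CPM against 304 and 315 CPM. Its log2 fold change of -0.26 ± 0.14 was the smaller one in size. It was -0.42 without Ptf1a-/- replicate 1 and -0.11 without its replicate 2. It was -0.43 with library size as the only scaling and -0.61 on the deposited CPM; the median shifts of these scales are given with miR-1224-5p.

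The arm of Mir342 with more counts therefore differed between the genotypes. The 5p arm took 37.9 and 48.1% of the hairpin's counts in Ptf1a-/-, with exact 95% intervals of 35.7 to 40.2% and 45.5 to 50.7%, which cover counting error only. In Ptf1a+/- it took 59.6 and 58.8%, with intervals of 57.8 to 61.4% and 57.2 to 60.5%. No interval of one genotype met one of the other, but that of Ptf1a-/- replicate 2 includes an even split. A ratio of arms within a library does not depend on how libraries are scaled. Of 152 hairpins with both arms tested, Mir342 was the only one with more 3p than 5p counts in both libraries of one genotype and the reverse in both of the other. The mean log2 of 5p over 3p was -0.41 in Ptf1a-/- and 0.54 in Ptf1a+/-, a shift of -0.95, with -1.25 and -0.65 in the 2 Ptf1a-/- libraries taken singly. The 2 Ptf1a+/- libraries differed by 0.04. A hairpin can change the arm with more counts only if its ratio starts near an even split. Most of the 152 lay farther from an even split in Ptf1a+/- than the size of the Mir342 shift. Being the only hairpin to change sides thus says little about the size of its shift.

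Values of all hairpins are given beside it as a description only, since Mir342 was included because of the measured change of its 5p arm. The median size of the shift over the 152 hairpins was 0.31, and 8 had one at least as large as that of Mir342, itself included. Among the 31 hairpins with both arms at a mean of 100 CPM or more, Mir342 was the only one that reached it. The genotypes did not overlap in arm ratio for 74 of the 152 (48.7%), so lack of overlap alone is common here.

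**Figure D3:**
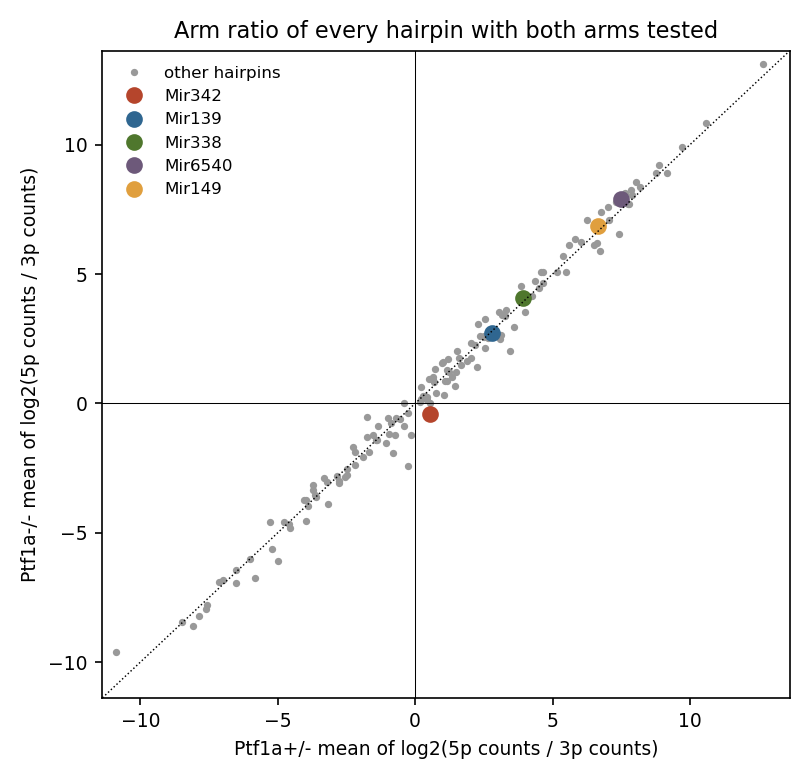
Mean log2 of 5p over 3p counts (0.5 added to each) in Ptf1a-/- (vertical) against Ptf1a+/- (horizontal) for the 152 hairpins with both arms tested; the dotted line marks equal values. Mir342 (red) lies at lower right, at 0.54 in Ptf1a+/- and -0.41 in Ptf1a-/-, while the shifts of Mir139, Mir338, Mir149 and Mir6540 run from -0.06 to 0.43.

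Of the other hairpins with both arms listed, only that of miR-139 had 100 or more counts of its minor arm in every library. The 5p arm of miR-139 took 87.1 and 87.0% in Ptf1a-/- and 88.2 and 86.8% in Ptf1a+/-. That of miR-338, with 15 to 27 counts of the 3p arm, took 93.9 and 95.02% in Ptf1a-/- and 93.8 and 94.1% in Ptf1a+/-. For both hairpins the genotypes overlapped in arm ratio. For Mir6540, Mir1224 and Mir149 the share was 98.8% or more in all 4 libraries, too close to its upper limit to show a shift. With 11 to 29 counts of the 3p arm, the 5p over 3p ratio of Mir149 was 176 and 81.1 in Ptf1a-/- and 96.7 and 109 in Ptf1a+/-, and that of Mir6540, with 12 to 25, was 193 and 321 against 173 and 198. Ligation and size selection favour some sequences, so a share of 5p counts compares libraries better than it compares the 2 arms of a hairpin.

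**Figure D4:**
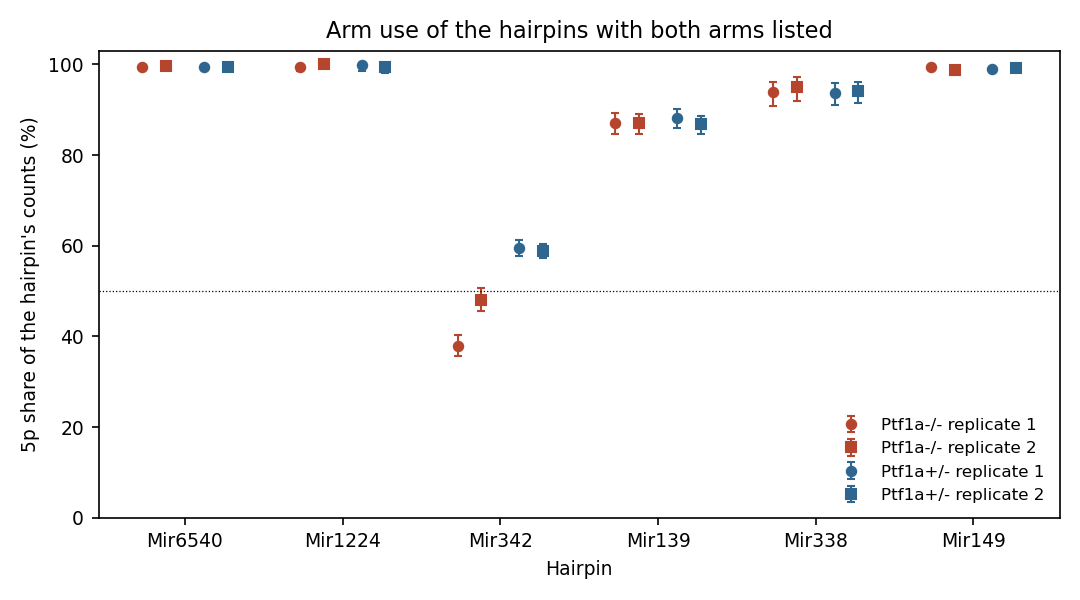
Share of a hairpin's counts in its 5p arm (%) in each library, with exact 95% binomial intervals and a dotted line at 50%. The Mir342 shares are 37.9 and 48.1% in Ptf1a-/- and 59.6 and 58.8% in Ptf1a+/-, while the other 5 hairpins stay above 80% in every library.

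mmu-miR-149-5p, from the first intron of Gpc1, was the most abundant member in Ptf1a+/- retina. It had 501 and 474 CPM in Ptf1a-/- and 649 and 672 CPM in Ptf1a+/-, from 1940 and 1541 counts and 2514 and 3159 counts. Both Ptf1a-/- libraries were lower, and the groups did not overlap. The log2 fold change was -0.44 ± 0.10, not called, and ran from -0.78 to -0.38 over the alternatives. With a minimum of 50 counts it was -0.45 and past the threshold. Its other arm, miR-149-3p, had 11 and 19 counts in Ptf1a-/- and 26 and 29 counts in Ptf1a+/-.

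Both arms of miR-338, which is known for its part in oligodendrocyte maturation together with miR-219, were slightly lower in both Ptf1a-/- libraries. miR-338-5p stood at 83.6 and 88.0 CPM in Ptf1a-/- and at 101 and 91.2 CPM in Ptf1a+/- (log2 fold change -0.16 ± 0.14). miR-338-3p, the least abundant member, had 21 and 15 counts in Ptf1a-/- and 26 and 27 counts in Ptf1a+/- (-0.29 ± 0.30). The gap between the genotypes was close to the gap between libraries of a genotype for both arms. The 2 oligodendrocyte markers, miR-219a-5p and miR-219a-2-3p, together stood at 10.3 and 11.4 CPM in Ptf1a-/- and at 9.81 and 12.5 CPM in Ptf1a+/-.

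The arms of miR-139, from Pde2a, and miR-326-3p, from Arrb1, had overlapping groups. miR-139-5p stood at 189 and 256 CPM in Ptf1a-/- and at 210 and 212 CPM in Ptf1a+/-, and miR-139-3p at 28.1 and 38.2 CPM against 28.1 and 32.3 CPM. For both arms Ptf1a-/- replicate 1 was at or under the Ptf1a+/- libraries and replicate 2 over them. Log2 fold changes were 0.07 ± 0.17 and 0.12 ± 0.22, and they turned negative with library size as the only scaling (-0.13 and -0.08). For miR-139-5p the log2 fold change was 0.28 without Ptf1a-/- replicate 1 and -0.14 without replicate 2. miR-326-3p went the other way within the genotype, at 41.8 and 27.1 CPM in Ptf1a-/- and 28.4 and 30.8 CPM in Ptf1a+/-. Its log2 fold change of 0.23 ± 0.25 was -0.13 without Ptf1a-/- replicate 1 and 0.51 without its replicate 2. miR-330-5p, with the same seed, stood at 173 and 195 CPM in Ptf1a-/- and at 231 and 241 CPM in Ptf1a+/- (-0.36 ± 0.12, not called).

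**Figure D5:**
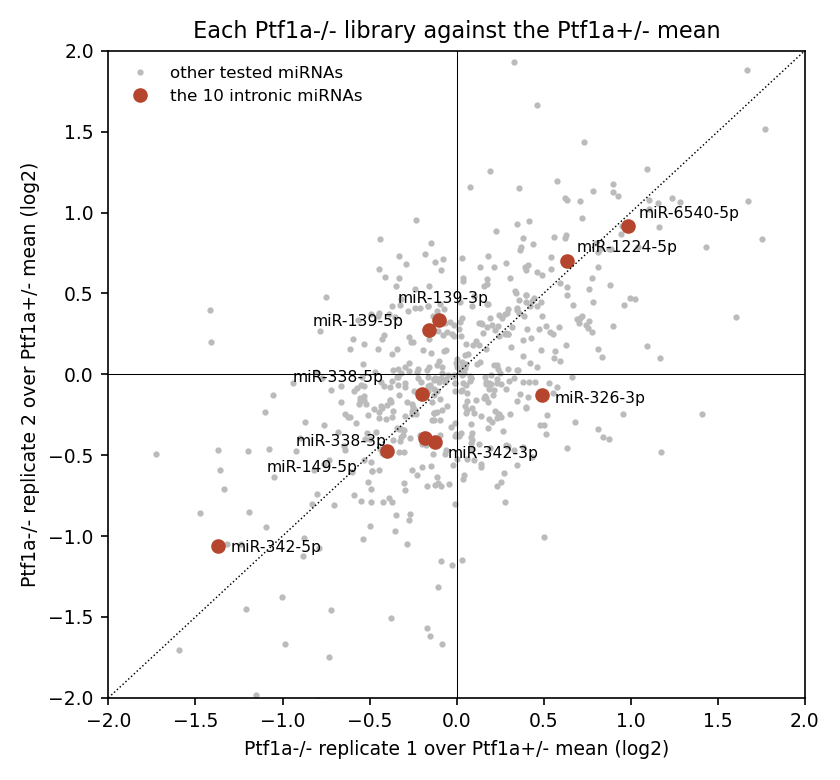
Log2 of each Ptf1a-/- library over the Ptf1a+/- mean (0.5 CPM added), replicate 2 against replicate 1, for the 10 members (red) and the other tested miRNAs (grey); the dotted line marks equal values, and 18 tested miRNAs lie outside the range shown. miR-6540-5p, miR-1224-5p, miR-342-5p and miR-149-5p lie near the line, while miR-139-5p, miR-139-3p and miR-326-3p have opposite signs in the 2 libraries.

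The order of the members by level was not the same in the 2 genotypes. In Ptf1a-/- the means ± SD (n = 2 each) were 1215 ± 41.4 CPM for miR-6540-5p, 487 ± 18.6 for miR-149-5p, 258 ± 36.8 for miR-342-3p, 222 ± 47.1 for miR-139-5p and 194 ± 29.3 for miR-342-5p. Then came miR-1224-5p with 157 ± 5.49 CPM, miR-338-5p with 85.8 ± 3.13, miR-326-3p with 34.4 ± 10.4, miR-139-3p with 33.1 ± 7.10 and miR-338-3p with 5.02 ± 0.567. In Ptf1a+/- the order was miR-149-5p with 661 ± 16.02 CPM, miR-6540-5p with 628 ± 2.80, miR-342-5p with 449 ± 0.562, miR-342-3p with 309 ± 7.14 and miR-139-5p with 211 ± 1.12. Below these were miR-1224-5p with 99.1 ± 7.45 CPM, miR-338-5p with 96.1 ± 6.88, miR-139-3p with 30.2 ± 2.96, miR-326-3p with 29.6 ± 1.72 and miR-338-3p with 6.23 ± 0.687. In Ptf1a-/- the libraries of miR-139-5p overlap those of both its neighbours, miR-342-3p and miR-342-5p. The 2 arms of miR-342 do not overlap each other there, with 284 and 232 CPM for 3p and 173 and 215 CPM for 5p. The neighbours miR-1224-5p and miR-338-5p in Ptf1a+/-, and miR-326-3p and miR-139-3p in both genotypes, do not differ beyond their spread.

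The ends of the sequenced molecules differed little between the genotypes. In all 40 combinations of member and library the most frequent sequence began at the reference base, so the seeds are those shown above, and it matched the hairpin along its whole length. For 9 of 10 members the most frequent sequence was identical in the 4 libraries. The exception was miR-6540-5p, which ended 1 base later than the reference in Ptf1a-/- replicate 1 and in both Ptf1a+/- libraries, and at the reference base in Ptf1a-/- replicate 2. miR-342-3p and both arms of miR-139 carried 1 further 3′ base in every library. miR-149-5p and both arms of miR-338 were 1 base shorter in every library.

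Of the other tested miRNAs, those with levels most like the 3 that guided the choice were sought over the 4 libraries, by Euclidean distance between log2 levels centred on their own mean, among 407 miRNAs of 10 CPM or more. Nearest to miR-6540-5p were miR-136-3p (distance 0.08), miR-412-5p (0.09) and miR-300-3p (0.11). Nearest to miR-1224-5p were miR-409-3p (0.11), miR-369-5p (0.15) and miR-410-5p (0.16). All 6 precursors are on chromosome 12, between 109595327 and 109743795 on the plus strand. Within these bounds, which the 6 themselves set, lie 40 of the 407 compared miRNAs (9.83%) and 23 of the 36 called higher (63.9%), and both members were selected on being higher. Nearest to miR-342-5p were miR-181b-1-3p (0.19), miR-1247-3p (0.23) and miR-199a-5p (0.27).

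Other miRNAs known from introns were set beside the members to see how miRNAs of similar hosts behaved. For further host genes known from neurons (Grm8, Astn1, Tenm4, Grid1, Ptprn2, Arpp21, R3hdm1, Slit2, Slit3, Fgf13 and Htr2c), 19 miRNAs were listed and 12 tested. From a single precursor placed in an intron here came 14 of those listed and 8 of those tested. miR-128-3p and miR-218-5p, named below, have several precursors, and miR-708-5p was not placed. None was called by edgeR or DESeq2 (9.76% of all tested miRNAs were called by edgeR in either direction), with 2 at an unadjusted p under 0.05 by each tool, both lower. Their median log2 fold change was -0.12, from -0.64 to 0.13. With a minimum of 50 counts edgeR called 1 of 10 tested, which was lower. With either Ptf1a-/- library left out more were called, in this list as over all miRNAs, since the close Ptf1a+/- libraries then set the spread alone. The 3 most abundant were miR-128-3p with 5981 and 7089 CPM in Ptf1a-/- and 7371 and 7328 CPM in Ptf1a+/-, miR-218-5p with 2850 and 1839 CPM against 3434 and 3442 CPM, and miR-708-5p with 959 and 812 CPM against 841 and 847 CPM.

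For broadly expressed hosts, such as Nfyc, Rnf130 and Map2k4, 36 miRNAs were listed and 31 tested. Of these, 29 listed and 24 tested came from a single precursor placed in an intron here. None was called by edgeR or DESeq2, with 8 at an unadjusted p under 0.05 by edgeR and 3 by DESeq2, and the median was -0.003, from -0.56 to 0.34. More were called here too with either Ptf1a-/- library left out, as over all miRNAs. miR-340-5p, in Rnf130, stood at 4951 and 4538 CPM in Ptf1a-/- and at 3762 and 3723 CPM in Ptf1a+/- (0.34 ± 0.11). miR-30e-5p, in Nfyc, stood at 6019 and 5311 CPM in Ptf1a-/- and at 5441 and 5314 CPM in Ptf1a+/-, and miR-744-5p, in Map2k4, at 2688 and 3373 CPM against 3418 and 3522 CPM.

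Over the whole annotation and leaving out the members, 176 tested miRNAs came from a single precursor on the sense strand in an intron of a protein-coding gene, with a median log2 fold change of -0.08. Of these, 1 was called higher by edgeR and 3 were called lower; the 4 are named here because they were called. miR-690 stood at 31.7 and 88.3 CPM in Ptf1a-/- and at 12.1 and 8.51 CPM in Ptf1a+/-. miR-125a-5p had a log2 fold change of -0.52 ± 0.11 and miR-204-3p one of -0.54 ± 0.12. miR-200b-3p, a miRNA of epithelia, had 1 and 3 counts in Ptf1a-/- and 25 and 31 counts in Ptf1a+/-. A further 244 tested miRNAs had a single precursor placed elsewhere, introns of non-coding hosts included, of which 33 were called higher and 15 lower. That is 19.7% called, against 2.27% of the 176 and 9.76% of all tested miRNAs. Of all 36 called higher, 23 lie within the chromosome 12 bounds given above, so these shares do not describe intronic place alone. The sets were not compared by a test.

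Markers of other cells that a dissected retina can hold were measured beside the members. The 6 immune cell miRNAs summed to 53.9 and 63.1 CPM in Ptf1a-/- and to 87.3 and 84.6 CPM in Ptf1a+/-. Of the 6, 3 were tested and none was called, and miR-146a-5p made up most of the sum, with 44.4 and 48.3 CPM in Ptf1a-/- and 65.8 and 62.3 CPM in Ptf1a+/-. miR-155-5p had 22 and 36 counts in Ptf1a-/- and 56 and 78 counts in Ptf1a+/- (log2 fold change -0.93 ± 0.34), and miR-142a-3p, found throughout blood cells, 13 and 8 counts against 22 and 17 counts (-0.63 ± 0.39). Of the others, miR-142a-5p had 2 to 8 counts, and miR-223-3p and miR-150-5p at most 2 in any library. Vessel and mural markers summed to 352 and 587 CPM in Ptf1a-/- and to 593 and 614 CPM in Ptf1a+/-. Most of that was miR-126a-3p, with 324 and 545 CPM in Ptf1a-/- and 546 and 564 CPM in Ptf1a+/- (-0.35 ± 0.24). Within the list, miR-143-3p stood at 13.2 and 20.6 CPM in Ptf1a-/- and at 33.8 and 34.2 CPM in Ptf1a+/- (-1.03 ± 0.25). miR-126a-5p went the other way (0.31 ± 0.28), and none of these was called. miR-145a-5p had at most 1 count in any library. Pigment epithelium markers summed to 260 and 300.1 CPM in Ptf1a-/- and to 407 and 404 CPM in Ptf1a+/-. Nearly all of that was miR-204-3p, which was called lower, at 252 and 289 CPM against 396 and 391 CPM. The other marker, miR-211-5p, was not called (-0.35 ± 0.29). The 5p arm of miR-204, counted above with the retina markers, stood at 2943 and 3265 CPM in Ptf1a-/- and at 3282 and 3324 CPM in Ptf1a+/- (-0.09 ± 0.11, not called). Lens and surface epithelium markers summed to 227 and 300.4 CPM in Ptf1a-/- and 305 and 292 CPM in Ptf1a+/-, of which miR-200b-3p was called lower. The more abundant miR-184-3p and miR-203-3p were not called and differed in sign (-0.44 ± 0.28 and 0.30 ± 0.14). Red blood cell markers summed to 63.7 and 96.0 CPM in Ptf1a-/- and 73.3 and 70.4 CPM in Ptf1a+/-, and striated muscle markers to 65.0 and 70.2 CPM against 48.5 and 51.3 CPM. The part of these markers in the values of the members was not tested.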

How the data were processed

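The libraries, 2 of Ptf1a-/- and 2 of Ptf1a+/- mouse retina at E18.5, hold RNA of 18 to 30 nt cut from a gel per the labels' protocols. The submitters' processing notes name bcl2fastq 2.20.0.422. Aligner and counter were not given in the sources used here, nor was the build. Deposited by the authors were estimated counts per mature miRNA (5.73 to 7.84% of values per library not whole; those of the members all whole), CPM of a library total of which 22.7 and 27.9% in Ptf1a-/- and 17.05 and 16.3% in Ptf1a+/- are not in the listed miRNAs, and the most frequent sequence per miRNA, written against miRBase22 per the file headers.

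Estimated counts were rounded and tested with edgeR 4.0.16 in R 4.3.3 (quasi-likelihood F test, TMM, 10 or more counts in at least 2 libraries, genotype as the only term). On simulated counts this recovered 44.8% of 1.5-fold, 70.1% of 2-fold and 97.0% of 4-fold changes, and called 1.82% of unchanged miRNAs. The simulation gave both genotypes the same spread, unlike the libraries here, so it cannot vouch for these calls. Alternatives used DESeq2 1.42.0, limma 3.58.1 on the log2 of deposited CPM, other filters and scalings, fewer libraries and a replicate block. Errors of log2 fold changes are SE of the edgeR fit, which takes the spread of both genotypes together, the close Ptf1a+/- libraries included. DESeq2 gave a larger SE for every member, such as 0.17 against 0.10 for miR-6540-5p. No molecular identifiers are described, so intervals cover counting error only. With 2 libraries a genotype, 0.333 is the smallest p that exact permutation allows. Hosts came from GENCODE M21 and precursors from RefSeq, both GRCm38; where several genes cover a precursor, a named protein-coding gene on its strand was preferred. The members, lists and tests were chosen with earlier results of these data known. Named were all members and their other arms, the 3 most abundant tested miRNAs of each list and the 3 nearest patterns; other names follow from the text. miR-326-5p and miR-205-5p were not analysed here. Same-numbered libraries did not deviate together (Pearson r = 0.05 over 584 miRNAs), so numbers were not taken as pairs.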

Additional observations from a re-analysis of the deposited data

How the results depend on the processing

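The 3 members called in the fit over all miRNAs kept their direction under all 12 alternatives. They were chosen on this contrast, so passing the threshold in an alternative is no support. With every library kept, all 3 passed it with DESeq2 and with a minimum of 50 counts. With no filter on low counts miR-1224-5p did not pass. Only miR-342-5p passed with library size alone and on the deposited CPM with a pseudocount of 1. None of the 3 passed with a pseudocount of 0.25. The 5p over 3p ratios moved by less than the spread between libraries under both of their alternatives, in all 46 values. These alternatives, no pseudocount and the deposited CPM, use the same counts of a library. Little movement was thus fixed in advance and is no support. Without Ptf1a-/- replicate 1 the log2 fold change of miR-342-3p was -0.42 and that of miR-139-5p was 0.28. Without replicate 2 that of miR-326-3p was 0.51. Signs turned for miR-139-5p and miR-139-3p in 4 alternatives each and for miR-326-3p in 3. miRNAs called higher and lower numbered 36 and 21 in the fit as reported, 4 and 12 with library size alone, 12 and 9 with no filter on low counts, 0 and 7 on the deposited CPM with limma and a pseudocount of 1 (16 and 112 at an unadjusted p under 0.05), 0 and 6 with one of 0.25 (16 and 105), and 0 and 1 with the Ptf1a+/- libraries summed (35 and 27). Leaving out 1 library gave 0 to 142 higher and 1 to 132 lower. DESeq2 gave 43 and 17. The share of calls that were higher was 63.2% as reported, 25% with library size alone and 0% on the deposited CPM. The median over the members was -0.05 as reported, -0.24 with library size alone, -0.031 with DESeq2, 0.052 over the 9 members that met a minimum of 50 counts, -0.39 and -0.40 on the deposited CPM, and -0.13 to -0.027 without 1 library. With the replicate block 5 and 7 miRNAs were called, miR-342-5p as the only member, and the members' median stayed at -0.05; the libraries share only a number, not a known pairing. Where 1 library of a genotype was left, it was assumed to vary like the other genotype. Why counts of calls moved with scaling was not tested. At this depth the 3p arms of miR-1224, miR-6540, miR-338 and miR-149 cannot be followed.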
